A study of Mus musculus with 14 samples.

Results

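Nuclear-encoded transcripts were compared between 2 libraries of mouse small intestinal organoids (sIOs) that expressed the same mitochondrial bait, one labelled MITO-1 and one labelled MITO-1c. A gene entered the comparison when it lay outside the mitochondrial genome and had 50 or more counts in the 2 libraries together, which kept 12853 of the 55401 genes in the count table. sIOs are 3D cultures that grow from intestinal crypts in matrigel. Here they came from C57BL/6J mice and carried a lentiviral fusion of APEX2, an engineered ascorbate peroxidase, with a V5 tag and a COX4-derived mitochondrial sequence. The vector also expresses the green marker ZsGreen1. Organoids were incubated with 500 µM biotin-phenol for 30 min, and labelling was started with 1 mM H2O2 for 1 min. The study prepared control organoids in which only the H2O2 was omitted, and MITO-1c was read here as that control. The sample labels give both libraries as MITO and do not state the H2O2 step, so the libraries are called by their labels throughout. Mice were 9 to 14 weeks old, and organoids were harvested 4 days after plating. Each arm had 1 library, with 18268471 counts in MITO-1 and 18716681 in MITO-1c. No test between the arms was therefore possible, and the sources do not state whether the 2 libraries came from separate cultures. The other 12 libraries of the series carried APEX2 fused to DPP4, GFP or ACTB, 4 libraries each. They serve here as a measure of how far libraries of a shared bait differ. The study corrected for batch between samples prepared on different dates, whereas uncorrected raw counts are used here. The sample labels do not give the dates, so differences between dates may enter this measure. Pairs drawn from the same 12 libraries also share members and are not independent.

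In APEX labelling, the peroxidase turns biotin-phenol into a short-lived radical only while H2O2 is present, and nearby RNA becomes biotinylated and can be pulled down with streptavidin. Nearly all mitochondrial proteins are encoded in the nucleus, translated on cytosolic ribosomes and imported through the outer and inner membranes. Some of their mRNAs are translated at the mitochondrial surface, whereas a peroxidase in the matrix is separated from cytosolic RNA by the inner membrane.

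The ratio of each gene is the log2 of its CPM (counts scaled to a common library total) in MITO-1 over that in MITO-1c, with 0.5 counts added to each, so a positive value is a higher level in MITO-1. Intervals in brackets are 95% counting intervals, which cover counting error only. Reads amplified by PCR are not independent molecules, so these intervals say nothing of the spread between cultures. A gene with a ratio of 1 or more is called higher and a gene with -1 or less is called lower. By that rule 1886 genes (14.7%) were higher and 3698 (28.8%) were lower in MITO-1. Each count of higher or lower list members below is to be read beside these shares. The median ratio of all 12853 genes was -0.27 with quartiles of -1.20 and 0.51. A list median is therefore also given relative to this value, as a distance that no scaling of the libraries changes.

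Genes near the minimum carried the widest ratios. Among the 4397 genes with fewer than 500 counts, 23.1% were higher and 43.4% lower, against 8.11% and 12.7% of the 3836 genes in the most counted of 3 bins. The median ratio of these 4397 genes was -0.64. At single counts around the minimum the medians varied, each over 19 to 41 genes. They were -0.88 at 48 counts, -3.30 at 49, -4.24 at 50, -0.94 at 51 and -2.80 at 52. In MITO-1, 483 of the 12853 genes had no count, and in MITO-1c 206 had none.

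Libraries that shared a bait differed by as much as the MITO pair. Over the 18 pairs of libraries within the DPP4, GFP and ACTB groups, the median absolute ratio per gene ranged from 0.773 to 1.498. The MITO pair had 0.84, a value reached or exceeded by 15 of the 18 pairs. In the MITO pair 43.4% of the genes were past the fold in either direction, against 39.6% to 64.9% in the 18 pairs. Each gene was therefore also set against its own absolute ratios in the 18 pairs. For 264 genes (2.05%) the higher level in MITO-1 exceeded all 18, and for 753 (5.86%) the lower level did. The genes in this comparison were chosen by their counts in the MITO pair, whereas the pair medians above used genes chosen pair by pair. A gene with few counts in the other libraries can have ratios near 0 there, and can exceed all 18 for that reason. Each statement below that a gene was beyond all 18 pairs is to be read with this limit. For 8.92% of the genes MITO-1 was above all 12 other libraries and for 8.01% it was below all of them, and the shares for MITO-1c were 9.24% and 2.74%. The MITO pair was deeper than GFP-4 and DPP4-4 and shallower than the other 10 libraries.

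**Figure D1:**
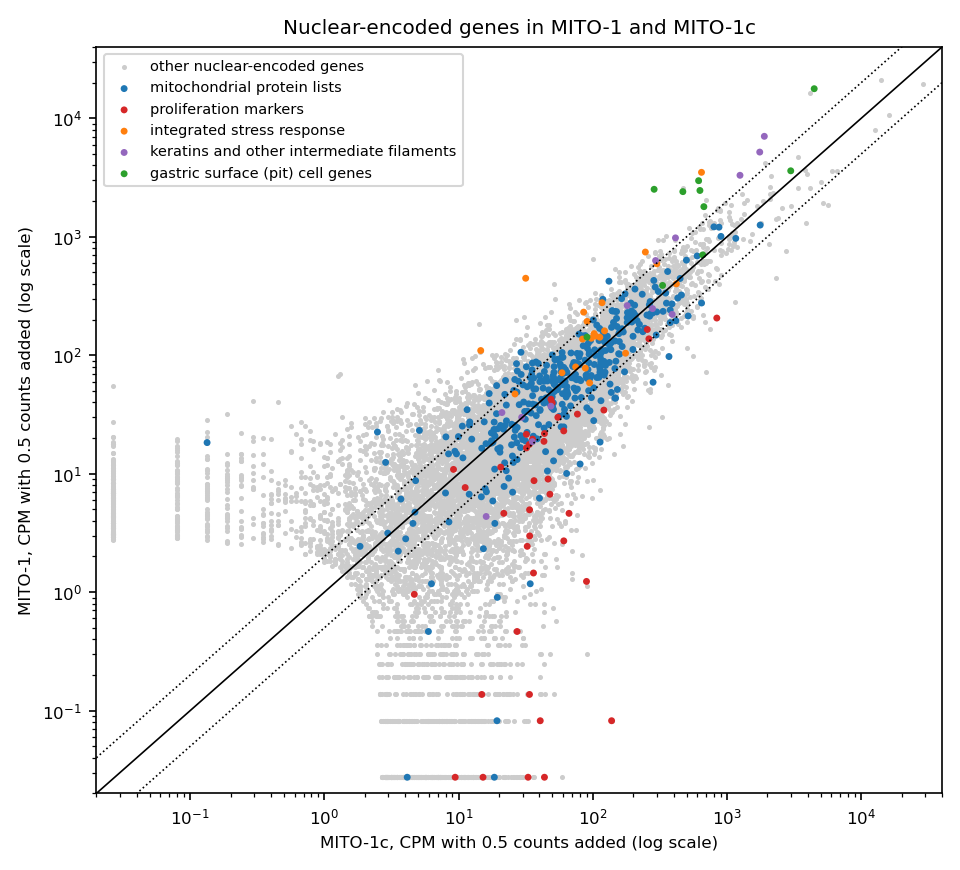
Level of each of the 12853 nuclear-encoded genes in MITO-1 (vertical axis) against MITO-1c (horizontal axis), both in CPM with 0.5 counts added and on log scales. The solid line marks equal levels and the dotted lines a log2 ratio of 1 and -1. Most genes of mitochondrial proteins lie along the line, proliferation markers lie below it down to genes with no count in MITO-1, and genes of the gastric surface lie on or above it.

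Short promoter stretches are shown for some called members of the groups described further on, as a selection of the matches found. They hold letter patterns known from the control of such genes, and whether these act here was not tested. The windows are RefSeq promoters on GRCm38.p6, 250 bases before to 50 bases after a start, searched on both strands, and the capitals mark the element. TTTGAA is the cell cycle homology region of genes active in mitosis. It was found in the windows of 9 of 19 matched proliferation markers called lower, and in 20.2% of all 27025 genes with a window. Among all matched proliferation markers, whatever their ratio, it was in 12 of 29.
Mki67 (chr7:135716462-135716487, minus strand): gccgttttggTTTGAAtcgggcgggc
Cdk1 (chr10:69352912-69352937, minus strand): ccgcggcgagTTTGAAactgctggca
Cdc20 (chr4:118437346-118437371, minus strand): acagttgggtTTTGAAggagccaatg
Ube2c (chr2:164769890-164769915, plus strand, element on the other strand): agggttgcaaTTCAAAcgcgggcggc

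TGATGNAA is the letter pattern of the C/EBP-ATF element that ATF4 and related factors bind. It was in 2 of 6 matched integrated stress response genes called higher, in 6 of all 20 matched members and in 4.51% of all genes with a window. TCACNCCAC is a sterol response element bound by SREBP factors. It was in 1 of 5 matched cholesterol genes called lower, in 1 of all 16 matched members and in 1.44% of all genes with a window. A match describes the letters only.
Trib3 (chr2:152344029-152344056, minus strand, element on the other strand): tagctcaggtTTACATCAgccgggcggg
Nupr1 (chr7:126625563-126625590, minus strand, element on the other strand): aagggccagaTTGCATCAgacagggctt
Hmgcs1 (chr13:119690204-119690232, plus strand): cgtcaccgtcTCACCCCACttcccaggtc

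The tissue label was checked against defining markers. Some markers of the small intestinal epithelium were present in both libraries and others had no count. Fabp1, a fatty acid binding protein of enterocytes, stood at 3578 CPM in MITO-1 and 6050 CPM in MITO-1c. The villus alkaline phosphatase Alpi stood at 2312 and 2105 CPM, and the actin bundler of microvilli, Vil1, at 190 and 255 CPM. Olfm4, on the crypt stem cell list, had no count in either library, while the highest of the other libraries had 119 CPM. Of 22 matched Paneth markers 11 were below the minimum. Among these, 8 had no count in either library, and 2 Paneth markers were at 0 in the whole series. Of 21 mesenchymal markers 2 were measured, and 17 of the other 19, among them Col1a1, Col3a1 and Pdgfra, had no count in either library. Of 22 immune and endothelial markers 4 were measured. Ptprc and Cdh5 were among the 16 with no count in either library.

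Genes of the stomach surface, which the small intestinal label does not name, were abundant in both libraries. The 10 listed genes were chosen after their values were seen, so their counts describe the libraries and support nothing further. Tff1, a trefoil peptide of gastric pit cells, had 17782 CPM in MITO-1 and 4464 CPM in MITO-1c. Its ratio was 1.994 (1.983 to 2.005), and the 12 other libraries ranged from 0.427 to 3921 CPM. Muc5ac, the gel-forming mucin of the gastric surface, had 2517 and 286 CPM with a ratio of 3.14 (3.09 to 3.18). The gastrokines secreted by the same cells followed, with 2976 and 614 CPM for Gkn1 and 2406 and 469 CPM for Gkn2. Of the 10 genes 6 were higher and none lower, and the median ratio was 1.69. Ctse and Muc1 differed little, with ratios of 0.27 and 0.09.

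The summed level of these genes was 34774 CPM in MITO-1 and 11199 CPM in MITO-1c, both above all 12 other libraries, which ranged from 11.4 to 8640 CPM. Without Tff1, which made up 51.1% of the sum in MITO-1, the sums were 16992 and 6735 CPM and the highest of the others was 5430 CPM. Absolute list medians as large as that of the MITO pair occurred in 12 of the 18 pairs. Of 6 measured markers of deeper gastric glands 1 was higher and 4 were lower. Muc6, a mucin of neck cells, had 7.66 and 30.5 CPM, Gif 2.24 and 24.95 CPM, and the parietal cell pump subunit Atp4b had no count in either library. Bhlha15, a transcription factor of chief cells and other secretory cells, was the higher one with 7.66 and 0.855 CPM, a ratio of 3.13 (2.39 to 3.86) on 140 and 16 counts. Tff2, a trefoil peptide of neck cells, had 430 and 232 CPM, which is within the fold. The share of gastric-type cells in the 2 cultures was not measured, and its part in the ratios below was not tested. In bulk libraries fewer cells of a type and less RNA per cell cannot be told apart.

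**Figure D2:**
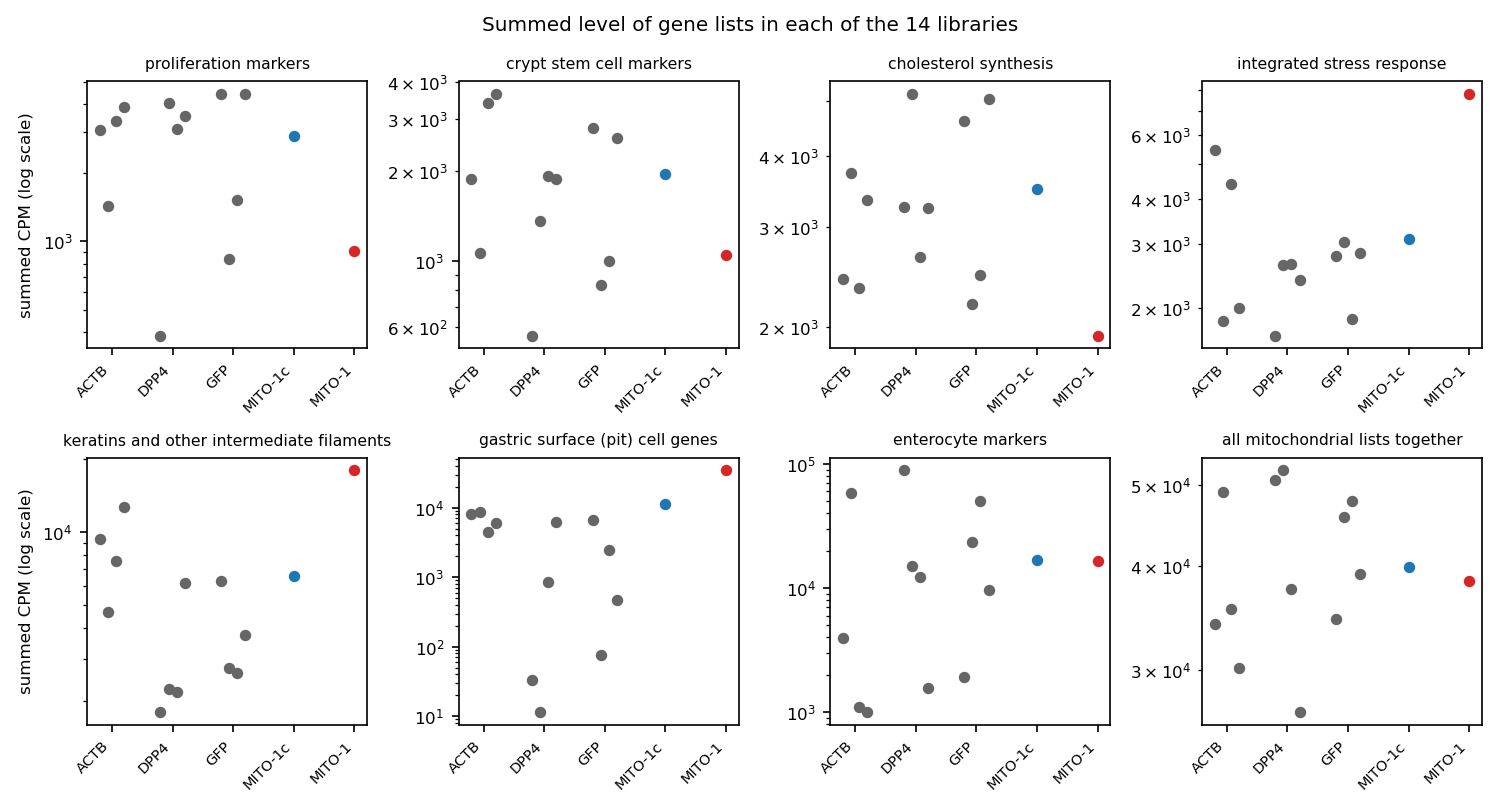
Summed CPM of 8 gene lists in each of the 14 libraries, 1 point per library on a log scale, with the 4 libraries each of ACTB, DPP4 and GFP in grey, MITO-1c in blue and MITO-1 in red. MITO-1 has the highest sum for the integrated stress response, keratins and gastric surface genes and the lowest for cholesterol synthesis. For all mitochondrial lists together it lies inside the range of the others.

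The bait was made to capture RNA inside mitochondria. Mitochondrially encoded genes held 5.88% of the counts in MITO-1 and 4.26% in MITO-1c, against 0.54% (DPP4-4) to 6.73% (DPP4-2) in the other libraries. Nuclear genes of mitochondrial proteins were read beside them, and whether their ratios reflect recovery near the bait was not tested. As a class these nuclear genes lay close to level. Over 12 lists with 388 genes, 374 genes were measured, and 29 of these were higher and 49 lower in MITO-1. That is 7.75% and 13.1% of the genes, against 14.7% and 28.8% of all genes. The shares of all genes include many genes with few counts. Among the 3836 genes of the most counted bin they were 8.11% and 12.7%, with a median ratio of -0.08, close to the values of this class. The median ratio was -0.05, or 0.22 relative to all genes, and 16 of the 18 pairs of a shared bait showed an absolute distance as large. The sum over these genes was 38424 CPM in MITO-1 and 39844 CPM in MITO-1c. Both values lie within the 26685 to 52156 CPM of the 12 other libraries.

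The subunits of oxidative phosphorylation were mostly within the fold. Complex I, the entry point of electrons from NADH, had 36 measured genes with a median of -0.23, none higher and 1 lower. The lower gene was Ndufab1, an acyl carrier protein, at 33.9 and 95.2 CPM with a ratio of -1.49 (-1.62 to -1.36). Ndufa2 had the highest lower bound of its list, with 82.2 and 45.2 CPM and a ratio of 0.86 (0.74 to 0.98). Complexes II and III with cytochrome c had 14 genes with a median of 0.10. Only Sdha, the flavoprotein subunit of succinate dehydrogenase, was past the fold there, with 195 and 416 CPM and a ratio of -1.09 (-1.15 to -1.03).

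Complex IV, which passes electrons to oxygen, had 12 measured genes with a median of -0.14. The one past the fold was Cox7a1, a muscle-type subunit outside the naming rule, with 8 and 111 counts. Cox8a was at 276 and 192 CPM and Cox6c at 102 and 158 CPM. ATP synthase had 18 genes and a median of -0.12, with 1 higher gene, Atp5g2, at 25.7 and 12.02 CPM. Cox4i1, the gene whose product gave the bait its mitochondrial sequence, was listed at 0 in all 14 libraries, as was Ndufa13. The annotated span of Gm20388 covers Cox4i1 on the same strand, and Gm20388 had 1303 and 1184 CPM. A zero in the table is therefore not a measure of absence for genes that overlap others.

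Mitochondrial ribosomal proteins, which build the ribosome of the matrix, had the highest median of the 12 mitochondrial lists. Their 76 measured genes had a median ratio of 0.22, or 0.48 relative to all genes. Of these 9 (11.8%) were higher and 1 (1.32%) lower, both under the shares of all genes. In 58 of the 76 the ratio was above the median of all genes, as it is by definition in 50% of all genes. Mrpl54 had 55.4 and 19.2 CPM with a ratio of 1.53 (1.36 to 1.70), and Mrps18b had 73.6 and 27.4 CPM with 1.43 (1.28 to 1.57). Mrpl41 was the lower one, at 5.86 and 17.95 CPM. A distance of 0.48 or more occurred in 4 of the 18 pairs, and no single gene of this list was beyond its own range in the 18 pairs.

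The matrix enzymes had a lower median. Of 27 genes of the tricarboxylic acid cycle and pyruvate dehydrogenase, none was higher, 8 (29.6%) were lower and the median was -0.50. The share of lower genes was near the 28.8% of all genes. Idh3a, the catalytic subunit of isocitrate dehydrogenase, had 97.5 and 369 CPM with a ratio of -1.92 (-1.997 to -1.85). Dlat, the E2 enzyme of pyruvate dehydrogenase, had 51.3 and 152 CPM with -1.57 (-1.67 to -1.46). Pdk2, a kinase that inhibits pyruvate dehydrogenase, had 12.04 and 80.4 CPM. Mdh2, the matrix malate dehydrogenase, was higher by a ratio of 0.47 (0.44 to 0.50), at 1205 and 871 CPM. The median of this list was 0.24 below that of all genes, a distance reached by 9 of the 18 pairs.

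Among the 22 measured genes of fatty acid oxidation and ketogenesis none was higher and 3 (13.6%) were lower, against 28.8% of all genes. Bdh1, which interconverts the ketone bodies, had 18.4 and 113 CPM with a ratio of -2.62 (-2.78 to -2.45). No pair of a shared bait differed as much in Bdh1, and MITO-1 lay below all 12 other libraries, which ranged from 53.8 to 257 CPM.

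Import, carrier, chaperone and gene expression lists had medians between -0.18 and 0.05, with single genes far from them in each direction. The protein import list had 37 measured genes, 5 (13.5%) higher and 6 (16.2%) lower, both under the shares of all genes. Timm10, a chaperone of the intermembrane space, had 23.2 and 5.08 CPM with a ratio of 2.18 (1.86 to 2.504), while Timm9, its partner in the same complex, had 6.95 and 25.2 CPM with -1.85 (-2.14 to -1.57). Of 41 carriers 5 (12.2%) were higher and 6 (14.6%) lower, also under the shares of all genes. Slc25a38, the glycine carrier, had 334 and 2 counts with a ratio of 7.10 (5.30 to 8.89). Slc25a23, a calcium-dependent ATP-Mg carrier, had no count in MITO-1 and 345 in MITO-1c, which is at least 112-fold lower against a floor of 3 counts.

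The matrix protease Lonp1 was higher and the matrix chaperonin Hspd1 lower. Lonp1 had 422 and 132 CPM with a ratio of 1.68 (1.61 to 1.74), above the 70.0 to 359 CPM of the 12 other libraries. Hspd1 had 214 and 514 CPM with -1.26 (-1.31 to -1.21), and Hspa9, the mitochondrial HSP70, had 1213 and 799 CPM with 0.60 (0.57 to 0.63). Of 44 measured genes of mitochondrial gene expression 8 (18.2%) were higher and 13 (29.5%) lower, against 14.7% and 28.8% of all genes. Sars2, a mitochondrial tRNA synthetase, was at 22.4 and 2.46 CPM. Polg, the replicative polymerase of mitochondrial DNA, was at 84.8 and 27.0 CPM.

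Of 29 measured genes of the outer membrane and of mitochondrial shape none was higher and 8 (27.6%) were lower, against 28.8% of all genes. Dnm1l, the dynamin that divides mitochondria, had 59.1 and 281 CPM with a ratio of -2.25 (-2.34 to -2.15), further apart than in any of the 18 pairs. Akap1, an anchor of the outer membrane that binds mRNAs, had 43.5 and 146 CPM with -1.75 (-1.86 to -1.63). Cyb5b, an outer membrane cytochrome, had 276 and 646 CPM. Mfn1, a mitofusin that joins outer membranes, had 69.0 and 34.996 CPM with 0.98 (0.84 to 1.11).

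**Figure D3:**
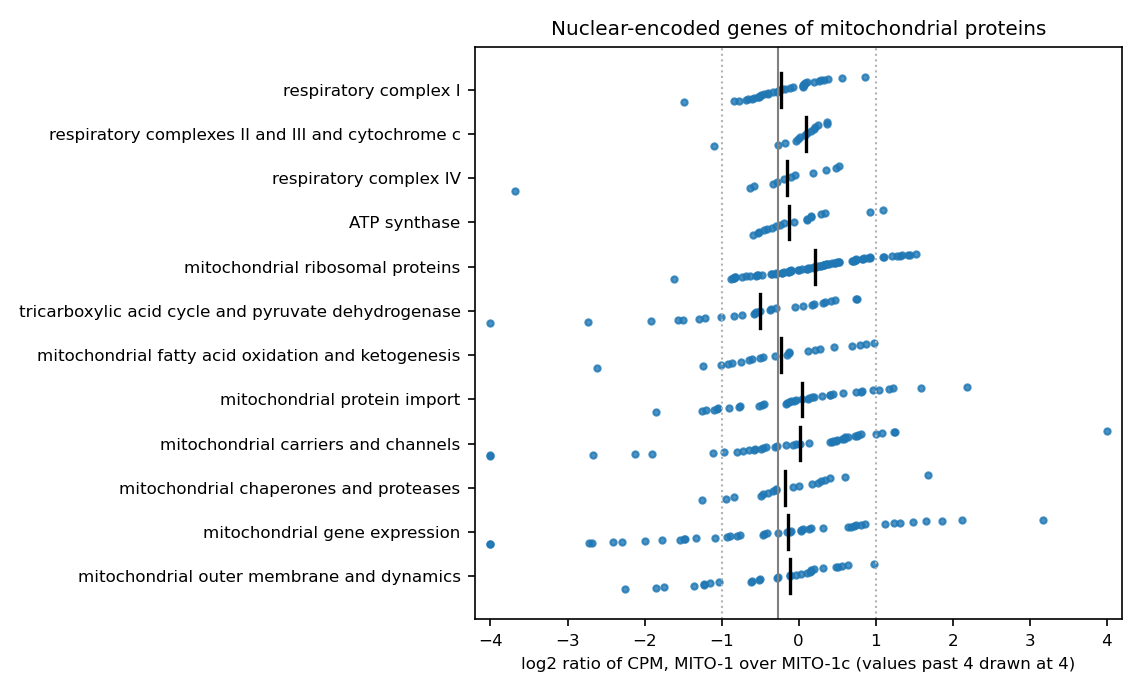
log2 ratio of CPM in MITO-1 over MITO-1c for the 374 measured genes of 12 lists of mitochondrial proteins, 1 point per gene and a black bar at each list median, with values past 4 drawn at 4. The grey line is the median of all genes (-0.27) and dotted lines mark -1 and 1. Respiratory chain genes lie mostly between the dotted lines, and the gene expression list is spread widely on both sides.

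Proliferation markers were lower in MITO-1. Of 39 measured genes none was higher and 26 (66.7%) were lower, against 28.8% of all genes, and the median ratio was -2.23. Relative to all genes the median was -1.963, a distance that 6 of the 18 pairs of a shared bait reached. Mki67, the Ki-67 antigen of cycling cells on chromosome 7 at 135689784 to 135716361 (GRCm38), had 1 count in MITO-1 and 2583 in MITO-1c. The 12 other libraries ranged from 11.4 to 282 CPM for Mki67, so MITO-1, at 0.0547 CPM, was below all of them and MITO-1c, at 138 CPM, was inside their range.

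Several members had no count or almost none in MITO-1. Cdc20, an activator of the anaphase-promoting complex, had no count in MITO-1 and 816 in MITO-1c, at least 265-fold lower. Aurkb, the kinase of the chromosomal passenger complex, had none and 616, at least 200-fold lower. Bub1b, a spindle checkpoint kinase, had 1 and 759 counts with a ratio of -8.95 (-11.26 to -6.64). For 8 of the 39 genes the ratio exceeded that of every pair of a shared bait, namely Mki67, Cdc20, Aurkb, Ccne1, Bub1b, Rpa2, Ccnb2 and Tpx2.

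Other members spanned the range from these to level. Mcm3 had 4.598 and 66.5 CPM and Mcm4 had 2.41 and 32.4 CPM, whereas Mcm7, of the same helicase, had 16.5 and 32.0 CPM. Pcna, the replication clamp, had 29.9 and 54.9 CPM, and Cdk4 had 165 and 255 CPM. Aurka, a kinase of mitotic entry, had the highest ratio of the list, with 10.8 and 9.14 CPM and an interval of -0.05 to 0.54. These Mcm and Pcna genes, like Ccne1, Rpa2, Ccnb2 and Tpx2, were named after their values were seen. The summed level of the list was 906 CPM in MITO-1 and 2895 CPM in MITO-1c. Of the 12 others, DPP4-1 (386 CPM) and GFP-2 (837 CPM) were below MITO-1, and the highest was 4434 CPM.

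Crypt stem cell markers, which mark the cells that renew the epithelium, had a median of -1.41. Of 18 measured genes 11 (61.1%) were lower and 2 (11.1%) higher, against 28.8% and 14.7% of all genes. Lgr5, the receptor that defines crypt base stem cells, had no count in MITO-1 and 326 in MITO-1c, at least 106-fold lower. Lgr5 was also at 0 in at least 1 of the 12 other libraries, which reached 190 CPM. Lrig1, a negative regulator of growth factor signalling, had 5.64 and 68.4 CPM with a ratio of -3.60 (-3.88 to -3.31) and was beyond all 18 pairs. Cd44 had 492 and 593 CPM, and Ephb3 was higher, at 19.3 and 8.92 CPM. A list median as far from that of all genes was seen in 9 of the 18 pairs.

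Differentiated lineages held higher and lower genes. Of 28 enterocyte markers 3 (10.7%) were higher and 5 (17.9%) lower, both under the shares of all genes, and their median ratio was -0.02. Nt5e, an ectonucleotidase, had 396 and 51.02 CPM with a ratio of 2.96 (2.86 to 3.05), and MITO-1 lay above all 12 others, which reached 72.9 CPM. Cdx2, the transcription factor that specifies intestine, had 3.23 and 27.6 CPM with -3.09 (-3.47 to -2.70). The disaccharidase Sis had 205 and 559 CPM with -1.45 (-1.501 to -1.39). The enterocyte list summed to 16382 and 16973 CPM, in a range of 996 to 89133 CPM over the 12 others.

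Among secretory lineages, the goblet and enteroendocrine lists also held genes of both directions, whereas measured Paneth markers were mostly lower. Of 19 goblet cell markers 2 (10.5%) were higher and 5 (26.3%) lower, both under the shares of all genes. Atoh1, the transcription factor of secretory progenitors, had 2.24 and 21.4 CPM, and Spink4 had 191 and 501 CPM. Rep15 had 277 and 87.2 CPM, above the 47.5 CPM that was the highest of the others. Of 11 measured Paneth markers 1 (9.09%) was higher and 6 (54.5%) lower, against 14.7% and 28.8% of all genes. The Paneth median was -1.05, and 13 of the 18 pairs were as far from the median of all genes. Itln1, an intestinal lectin, had 58.7 and 244 CPM, and the defensin Defa24 had 16.0 and 115 CPM. The higher one was Nupr1, a stress-induced nuclear protein that also belongs to the integrated stress response list and made up 95.2% of the Paneth sum in MITO-1. Without it the Paneth sum was 175 CPM in MITO-1 and 606 CPM in MITO-1c, and MITO-1 was below all 12 others.

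Of 15 enteroendocrine markers 4 (26.7%) were higher and 5 (33.3%) lower, against 14.7% and 28.8% of all genes. The hormone genes Sct and Cck had 20.8 and 33.0 CPM in MITO-1 against 3.74 and 16.6 CPM in MITO-1c, while the prohormone-processing genes Cpe and Pcsk1 had 4.54 and 5.75 CPM against 23.2 and 14.3 CPM. Of 8 measured tuft cell markers 2 (25%) were higher and 2 (25%) lower. Avil, an actin regulator of tuft cells, had 531 and 146 CPM with a ratio of 1.86 (1.7998 to 1.92).

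The fetal-like and regenerative list, with genes that injured or immature epithelium expresses, had a median of 0.45 over 24 measured genes. Of these 6 (25%) were higher and 2 (8.33%) lower, against 14.7% and 28.8% of all genes. The list median was 0.72 above that of all genes, a distance reached by 14 of the 18 pairs. Lgals3, a galectin, had 571 and 192 CPM and S100a6 had 559 and 215 CPM. Anxa10, which the gastric list also holds, had 1796 and 672 CPM. Spp1, the secreted phosphoprotein osteopontin, was the other extreme, with 72.3 and 697 CPM and a ratio of -3.27 (-3.35 to -3.19).

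A part of the integrated stress response genes was higher in MITO-1. In this pathway several kinases phosphorylate the initiation factor eIF2α, bulk translation falls, and ATF4 induces genes of amino acid supply and feedback. Of 21 measured genes 7 (33.3%, against 14.7% of all genes) were higher and none lower, with a median ratio of 0.57. In 19 of the 21 the ratio was above the median of all genes. The list median was 0.84 above that of all genes, a distance reached by 5 of the 18 pairs.

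Trib3, a pseudokinase and feedback inhibitor of ATF4, lies on chromosome 2 at 152337422 to 152344032. It had 447 CPM in MITO-1 and 31.6 CPM in MITO-1c, a ratio of 3.82 (3.70 to 3.94). MITO-1 was above the 29.4 to 262 CPM of the 12 other libraries, and no pair of a shared bait differed as much. Sesn2, a stress-induced inhibitor of mTORC1, had 110 and 14.6 CPM with 2.91 (2.72 to 3.09), further apart than in all 18 pairs, although MITO-1 was within the others' range. Nupr1 had 3499 and 646 CPM with 2.44 (2.41 to 2.47), against 31.4 to 1534 CPM in the others.

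The other genes called higher were Slc3a2, Slc7a5, Phgdh and Ppp1r15a. Slc3a2, the heavy chain of amino acid transporters, had 743 and 246 CPM with 1.59 (1.54 to 1.64). The remaining members are named after their values were seen. Slc7a5, the light chain that pairs with Slc3a2, had 277 and 117 CPM, and Phgdh, the first enzyme of serine synthesis, had 193 and 90.6 CPM. Ppp1r15a, the phosphatase subunit that reverses eIF2α phosphorylation, had 231 and 85.4 CPM and was beyond all 18 pairs. The upstream factors were within the fold, with Atf4 at 145 and 104.8 CPM and Ddit3 at 71.1 and 58.9 CPM. Shmt2, a mitochondrial enzyme of the folate cycle, had 104 and 175 CPM and Gdf15 had 58.4 and 94.6 CPM, neither past the fold. The list summed to 7805 CPM in MITO-1 and 3091 CPM in MITO-1c, with 1669 to 5447 CPM in the others. Without Nupr1, 44.8% of the MITO-1 sum, the values were 4306 and 2446 CPM, and MITO-1 was still above all 12 others.

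Keratins of simple epithelia were among the genes higher in MITO-1. Krt19 had 7047 CPM in MITO-1 and 1897 CPM in MITO-1c with a ratio of 1.89 (1.88 to 1.91). Krt18 followed with 5188 and 1753 CPM, and its partner Krt8 had 3304 and 1250 CPM. Krt7, a keratin of ductal and gastric epithelium that the normal small intestine has little of, had 979 and 413 CPM. Of 13 measured intermediate filament genes 5 (38.5%) were higher and 1 (7.69%) lower, against 14.7% and 28.8% of all genes. The summed level was 18002 CPM in MITO-1 and 6607 CPM in MITO-1c, against 1798 to 12732 CPM in the others. A list median as far from that of all genes occurred in 10 of the 18 pairs, and no keratin was beyond its range in them. The lower one was a keratin, Krt80, at 4.32 and 16.03 CPM with a ratio of -1.88 (-2.24 to -1.53). The plakin Dsp, which anchors keratins at desmosomes, had 221 and 390 CPM.

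The actin cytoskeleton stood furthest apart from the pairs of a shared bait. Its 49 measured genes had a median ratio of 0.39, or 0.65 relative to all genes, and a single pair of the 18 reached that distance. Only 3 genes were higher by the fold and 1 was lower, and in 39 of the 49 the ratio was above the median of all genes. Actb, β-actin, had 1933 and 961 CPM with a ratio of 1.01 (0.98 to 1.03). MITO-1 lay within the 1141 to 2568 CPM of the 12 others, and MITO-1c was below all of them. Pfn1, which loads actin monomers, had 771 and 401 CPM with 0.94 (0.90 to 0.98). Arpc4, a subunit of the Arp2/3 complex, had 87.1 and 19.1 CPM with 2.19 (2.02 to 2.36), and MITO-1c was again below all others. Actb, Pfn1, Arpc4 and the capping protein Capzb, named after its values were seen, were beyond all 18 pairs.

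Genes of the microvillus and terminal web had a median of -0.22. Of 28 measured none was higher and 7 (25%) were lower by the fold, against 28.8% of all genes. Ezr, which links actin to the apical membrane, had 752 and 406 CPM with 0.89 (0.85 to 0.93), while Eps8, a capping protein of microvillus tips, had 44.8 and 182 CPM with -2.02 (-2.13 to -1.91). The long spectrin Sptan1 had 73.3 and 174 CPM. Of 47 microtubule genes 8 (17.0%) were higher and 10 (21.3%) lower, against 14.7% and 28.8% of all genes. Tuba4a had 145 and 41.7 CPM, and Camsap3, which anchors microtubule minus ends at the apical side, had 15.7 and 76.99 CPM.

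Junction and matrix lists also held genes of both directions. Of 36 junction genes 2 (5.56%) were higher and 6 (16.7%) lower, both under the shares of all genes. Marveld3, a tight junction protein, had 33.2 and 3.69 CPM with 3.16 (2.805 to 3.52), and Cldn23 had 16.9 and 100.1 CPM with -2.57 (-2.74 to -2.39). Ctnnb1, β-catenin, had 218 and 491 CPM. Among 27 integrin and matrix genes Itgb5 had 112 and 24.3 CPM and the laminin chain Lamb3 had 500.1 and 173 CPM. The laminin chain Lamb2 had no count in MITO-1 and 1109 in MITO-1c, at least 361-fold lower, and Lamb2 was also at 0 in at least 1 other library of the series.

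Iron storage genes led the antioxidant list. NRF2 is a transcription factor that oxidants stabilise, and its targets include ferritins, glutathione enzymes and thioredoxin reductase. Ftl1, the ferritin light chain, had 4199 and 1916 CPM with a ratio of 1.13 (1.11 to 1.15), and Fth1, the heavy chain, had 1747 and 851 CPM with 1.04 (1.01 to 1.07). Of 30 measured genes 2 (6.67%) were higher, both ferritins, and 1 (3.33%) was lower, both shares under those of all genes. The lower one was Gpx2, the gastrointestinal glutathione peroxidase, at 196 and 402 CPM. Txnrd1 had 198 and 292 CPM. Immediate early genes, which many stimuli induce within minutes, had a median of -0.27, the same as that of all genes. Of 27 measured 2 (7.41%) were higher and 6 (22.2%) lower, both under the shares of all genes. Fos had 332 and 252 CPM, Egr1 76.1 and 199 CPM and Dusp5 134 and 28.9 CPM.

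Proteasome genes had a median of 0.26. Of 34 measured 3 (8.82%) were higher and none lower, both under the shares of all genes. Psmc3 and Psmc2, ATPases of the regulatory particle, had 225 and 265 CPM in MITO-1 and 88.3 and 110 CPM in MITO-1c. Psme4, an alternative activator, had 81.9 and 163 CPM. In 4 of the 18 pairs the list was as far from the median of all genes.

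Interferon-stimulated genes, which restrict viruses, had a median of 0.44 over 34 measured genes. Of these 14 (41.2%) were higher and 4 (11.8%) lower, against 14.7% and 28.8% of all genes. The oligoadenylate synthetases Oas2 and Oas3 had 61.9 and 26.3 CPM in MITO-1 and 7.11 and 1.98 CPM in MITO-1c. Oasl2, of the same family, had 34.2 and 66.3 CPM, and Irf1 had 12.5 and 38.4 CPM. List medians as far from that of all genes were found in 17 of the 18 pairs, and the highest of the other libraries had 194 CPM of Oas2.

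Of 24 measured genes of cholesterol synthesis none was higher and 9 (37.5%) were lower in MITO-1, against 28.8% of all genes. The median was -0.85, and in 3 the ratio was above that of all genes. Hmgcs1, the synthase that makes HMG-CoA, had 49.3 and 268 CPM with a ratio of -2.44 (-2.54 to -2.34). MITO-1 was below the 118 to 607 CPM of the 12 other libraries, and no pair of a shared bait differed as much. Mvd and Sc5d had 31.5 and 48.7 CPM in MITO-1 and 115 and 147 CPM in MITO-1c. Fdft1, the enzyme that commits farnesyl units to sterols, had 184 and 191 CPM with an interval of -0.13 to 0.01. The list summed to 1925 CPM in MITO-1 and 3500 CPM in MITO-1c, and MITO-1 was below the 2194 to 5161 CPM of the others. The list median was 0.58 below that of all genes, as far as in 7 of the 18 pairs.

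Chromatin and splicing genes, whose proteins act in the nucleus, had low medians. Of 49 chromatin regulators none was higher and 25 (51%) were lower, with a median of -1.01, and 3 of the 18 pairs were as far from the median of all genes. Ep400, a remodelling ATPase, had 21.7 and 120.1 CPM with -2.47 (-2.62 to -2.31). Dnmt1, the maintenance DNA methyltransferase, had 4.71 and 34.4 CPM. Of 54 splicing genes none was higher, 12 (22.2%) were lower and the median was -0.68. That share is under the 28.8% of all genes. Srrm1, an SR-related splicing coactivator, had 115 and 326 CPM with -1.51 (-1.58 to -1.44) and was beyond all 18 pairs. Snrpa, of the U1 particle, had 92.0 and 56.6 CPM. The median transcript length was 8507 bases in the chromatin list and 2908 bases in the splicing list.

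Of 9 measured nuclear-retained long noncoding RNAs none was higher and 3 (33.3%) were lower. Their median was -0.74, or -0.47 relative to all genes, and in 2 the ratio was above the median of all genes. A list median as far from that of all genes occurred in 11 of the 18 pairs. Malat1 had 4730 and 3367 CPM with a ratio of 0.49 (0.48 to 0.51), whereas Neat1 had 732 and 983 CPM with -0.43 (-0.46 to -0.39). Tug1 had 61.0 and 200.2 CPM with -1.71 (-1.81 to -1.62).

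Cytosolic ribosomal protein genes were mostly within the fold. Of 77 measured genes 7 (9.09%) were higher and 6 (7.79%) lower, both shares under those of all genes. In the most counted bin of 3836 genes the shares were 8.11% and 12.7%. The median ratio was 0.31 with quartiles of -0.21 and 0.65, and in 62 of the 77 the ratio was above the median of all genes. The members named here are the extremes. In the small subunit Rps26 had 946 and 336 CPM with a ratio of 1.49 (1.45 to 1.54), whereas Rps4x had 1931 and 5232 CPM with -1.44 (-1.46 to -1.42). In the large subunit Rpl31 had 171 and 74.9 CPM, and Rpl28 had 280 and 1147 CPM with -2.04 (-2.08 to -1.99). The summed level was 30761 CPM in MITO-1 and 38575 CPM in MITO-1c, whereas the median ratio was positive. Ribosomal protein genes have many processed pseudogenes, so the assignment of their reads is uncertain. In 11 of the 18 pairs the list was as far from the median of all genes.

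Genes of the secretory pathway had list medians near 0. The lists of endoplasmic reticulum targeting, endoplasmic reticulum folding and Golgi had medians of -0.04, -0.06 and -0.13. These lay 0.23, 0.21 and 0.14 above the median of all genes, distances reached by 8, 8 and 15 of the 18 pairs. Hspa5, the chaperone BiP of the endoplasmic reticulum, had 2308 and 1294 CPM with 0.83 (0.81 to 0.86), while the lectin chaperone Canx had 292 and 632 CPM with -1.12 (-1.16 to -1.07). Srpr, the receptor of the signal recognition particle, had 317 and 157 CPM with 1.01 (0.95 to 1.08), above all 12 others and beyond all 18 pairs. Among 39 lysosomal genes 6 (15.4%) were higher and 4 (10.3%) lower, against 14.7% and 28.8% of all genes. Cd63, a tetraspanin, had 1514 and 682 CPM, and the peptidase Tpp1 had 32.7 and 113 CPM.

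Digestive and absorptive lists were as far from the median of all genes in at least 16 of the 18 pairs as in the MITO pair. Of 17 measured brush border hydrolases 4 (23.5%) were higher and 6 (35.3%) lower, against 14.7% and 28.8% of all genes. Their median was 0.40 above that of all genes, and the 18 pairs had a median absolute distance of 4.79 for that list. Chylomicron genes were close to level, with Apoa4 at 1839 and 1080 CPM and the transfer protein Mttp at 309 and 477 CPM. Of 30 xenobiotic genes 7 (23.3%) were higher and 1 (3.33%) lower. Gstm1, a glutathione transferase, had 2035 and 692 CPM with 1.56 (1.53 to 1.59). Npc1l1, the cholesterol importer of enterocytes, had 27.9 and 110 CPM, and Dpp4, whose product served as the apical bait elsewhere in the series, had 9.47 and 6.999 CPM.

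**Figure D4:**
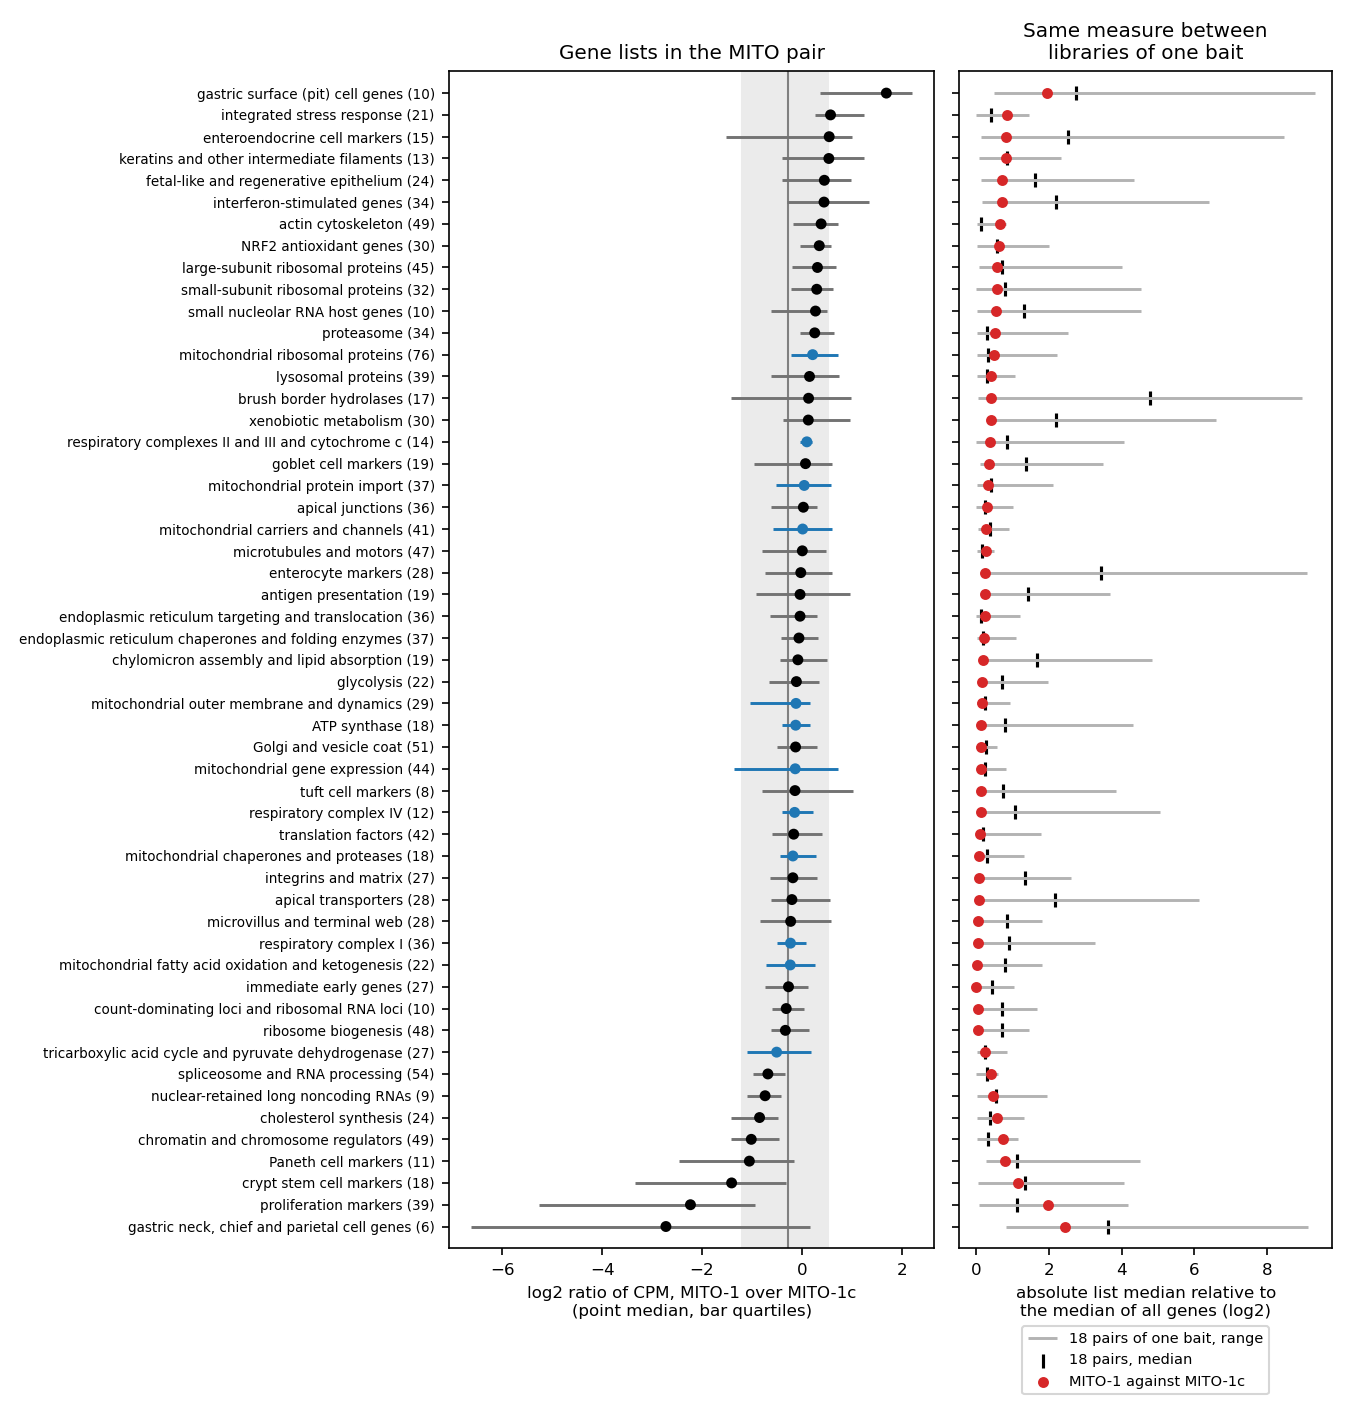
Left, median (point) and quartiles (bar) of the log2 ratio of CPM in MITO-1 over MITO-1c for each list with 5 or more measured genes, their number in brackets, with mitochondrial lists in blue and the median and quartiles of all genes in grey. Right, the absolute distance of each list median from that of all genes in the MITO pair (red) and in the 18 pairs of a shared bait (grey range, black median). No red point lies above its grey range, and some lie below it.

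The genes with the highest lower bounds belonged to many pathways. Among the 7988 protein-coding genes with 500 or more counts, the leading gene was Artn, a neurotrophic ligand of the GDNF family, with 999 counts in MITO-1 and none in MITO-1c, at least 341-fold higher. Acy3 (514 and 2 counts), Arrdc2 (585 and 3 counts), Atg9a (755 and 5 counts) and Gpr160 (734 and 8 counts) followed. Atg9a is a lipid scramblase of autophagy. Their ratios were 7.72 (5.93 to 9.51), 7.42 (5.91 to 8.94), 7.14 (5.93 to 8.35) and 6.47 (5.49 to 7.44). These 5 genes and Trib3 and Vps4a, an ATPase of the ESCRT pathway, were the 7 of the 15 leading genes that were beyond all 18 pairs. Over all genes the share was 2.05%, but the 15 were picked by the same ratio, so the 2 shares cannot be compared. The others of the 15 included Disp1, Car6, Slfn2, Tmem104, Fam129a and Il34, and 1 to 5 of the 18 pairs differed as much in each of them. Trib3, with 8157 counts, and Fam129a, with 3360, were the most counted of the 15 in MITO-1.

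At the other end the 15 genes with the lowest upper bounds were Mki67, Lamb2, Prc1, Cenpf, Cdc20, Bub1b, Slc7a8, Wdr90, Nagpa, Fam185a, Wdr62, 1700066B19Rik, Uhrf1, Ncaph and Aurkb. Prc1, which bundles microtubules of the central spindle, had 5 and 1682 counts with -8.22 (-9.43 to -7.01), and Cenpf, a kinetochore protein, had 2 and 955 counts with -8.54 (-10.33 to -6.75). Of the 15 genes 9 were beyond all 18 pairs, against 5.86% of all genes. These 15 were also picked by the ratio itself, so their count describes them and supports nothing further. Such near absences were found in the pairs of a shared bait as well. There were 41 genes with 500 or more counts together and 5 or fewer in one library, and the 18 pairs had 25 to 521 such genes.

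The ratio differed along transcript length and base composition. Over 11073 protein-coding genes, the median ratio was 0.08 in the shortest of 5 bins of transcript length (up to 1635 bases) and -0.53 in the longest (4869 bases or more). It was -0.66 in the bin with the lowest GC content and 0.06 in the highest. Within each of 3 length classes the median was higher with more GC, from -0.33 to 0.20 in the shortest class and from -0.71 to -0.17 in the longest. In the pairs of a shared bait the difference between the outer length bins was as large in 9 of 18, and that between the GC bins in 2 of 18. The part of length and GC in the list medians was not tested.

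**Figure D5:**
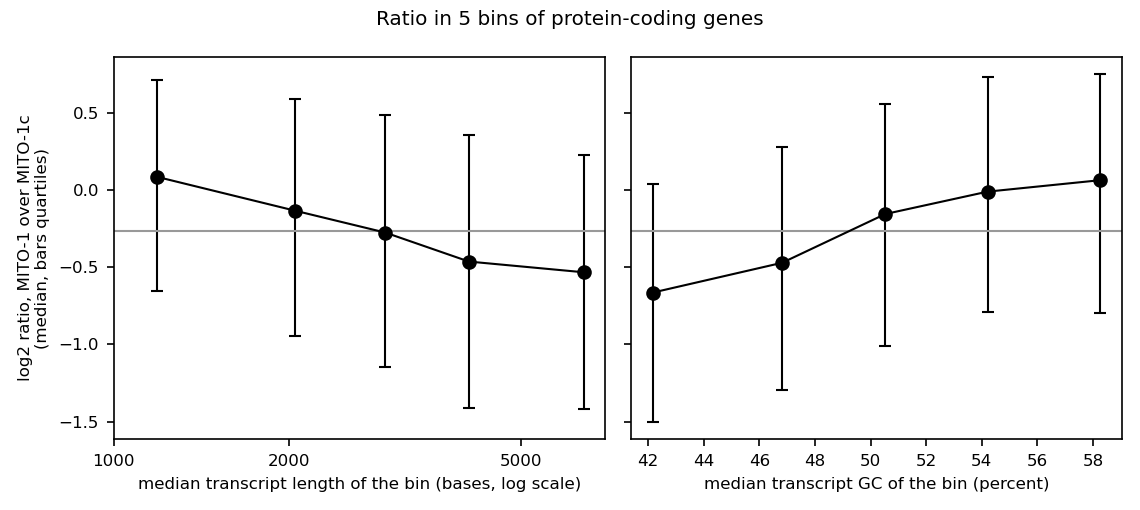
Median log2 ratio of CPM in MITO-1 over MITO-1c (points) with quartiles (bars) in 5 equal bins of 11073 protein-coding genes, by transcript length on a log scale (left) and by transcript GC content in percent (right). The grey line is the median of all genes. The median is 0.08 in the shortest and -0.53 in the longest bin, and -0.66 in the lowest and 0.06 in the highest GC bin.

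Antisense genes often had ratios near those of the genes they overlap, though some were far apart. Gm15318, annotated on the strand opposite to Tff1, had 301183 and 78046 counts with a ratio of 1.98, and Tff1 had 324854 and 83546 counts with 1.994. Of 894 measured antisense genes 857 overlapped a measured protein-coding gene, and the median absolute difference between the ratios of partners was 0.47. Where both partners had 500 or more counts, in 282 cases, it was 0.19. Across the 857 pairs of genes, which are not independent replicates, Pearson's r was 0.69. Gm15893 had a ratio of 8.30 and its partner Msi2 one of -0.52, a pair named after its values were seen. The methods name the default mode of HTSeq and do not spell out the strand setting, so the assignment of reads between such partners is uncertain.

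A few loci held a large part of the counts. Cmss1 had 356489 counts in MITO-1 and 542682 in MITO-1c with a ratio of -0.57 (-0.58 to -0.57), and Filip1l and Jarid2 had ratios of -0.68 and -0.60. The 10 genes with most counts made up 15.3% of the counts of MITO-1 and 12.6% of those of MITO-1c, within the 11.8% to 36.5% of the 12 other libraries.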

How the data were processed

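Per the labels and the study's methods, biotinylated RNA was bound to streptavidin beads, reverse transcribed there with an msSCRB-seq protocol and made into Nextera XT libraries. The authors deposited raw counts per gene for 14 libraries (whole numbers, 9442594 to 36492010 per library, not normalized). The submitters' processing notes name cutadapt 4.0, FastQC 0.11.9, STAR 2.7.9a, HTSeq 1.99.2 and GRCm38. Names came from GENCODE M21 (54349 identifiers matched with version, 792 without, 260 unmatched). Python 3.11.15 (numpy 2.4.6, pandas 2.3.3, scipy 1.17.1) gave log2 ratios of CPM with 0.5 counts added and 95% normal counting intervals. The calculation was tested on simulated data. Alternatives were TMM scaling (edgeR 4.0.16 in R 4.3.3), the median set to 0, totals without dominant loci, 5 counts added, minimums of 10 and 500 counts, a fold of 2 on the log2 scale, and exact binomial intervals.

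The genes, 53 lists (42 classes, 10 cell type lists and 1 list of dominant loci) and rules were chosen with earlier results of these data known. Another 2 gastric lists were added after values were seen. Named genes were the 15 protein-coding genes with the highest lower bound and the 15 with the lowest upper bound among those with 500 or more counts, up to 4 per list and direction among members with 200 or more counts, and Actb, Dpp4, Cox4i1 and the dominant loci. Cdk1, Ube2c, Alpi, Vil1, Cox7a1, Mcm3, Mcm4, Mcm7, Pcna, Ccne1, Rpa2, Ccnb2, Tpx2, Slc7a5, Phgdh, Ppp1r15a, Atf4, Ddit3, Capzb, Bhlha15, Gm15318, Gm20388, Gm15893, Msi2 and the untested markers were named after their values were seen. A gene at 0 in a library was set against a floor of 3 counts. With 1 library per arm no p-value was computed. Some genes that these rules select are not reported here.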

Additional observations from a re-analysis of the deposited data

Results flagged for a closer look

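In 24 groups of 4 libraries of a shared bait, 4 list sums had a library far from the other 3. The groups reuse the same libraries, and no rate expected by chance was worked out for them. The sum of gastric surface genes in DPP4-4 was 6323 CPM, with 11.4 to 866 CPM in the other DPP4 libraries. The keratin sum was 6154 CPM in DPP4-4, with 1798 to 2243 CPM in the others. The enterocyte sum was 57820 CPM in ACTB-2, with 996 to 3941 CPM in the other ACTB libraries, and 89133 CPM in DPP4-1, with 1577 to 14925 CPM in the other DPP4 libraries. These libraries enter the 18 pairs used as a measure of spread. Without them 10 pairs remained, with a median absolute ratio of 0.77 to 1.32, and 8 of the 10 reached the 0.84 of the MITO pair. Of these 10 pairs, 3 reached the list distance of the MITO pair for proliferation markers and for the integrated stress response, 5 for cholesterol synthesis, 2 for mitochondrial ribosomal proteins and none for the actin cytoskeleton.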

How the results depend on the processing

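No paired analysis was possible because each arm of the MITO comparison had 1 library. Scaling moved the median of all genes, by 0.22 with TMM and by 0.27 with the median set to 0. The share of higher genes among those past the fold was 33.8% with total counts, 43.1% with TMM (2396 higher, 3157 lower) and 45.2% with the median at 0 (2529 higher, 3061 lower). A log2 ratio of 2 left 824 higher and 1909 lower genes. A minimum of 500 counts left 871 higher and 1791 lower, as fewer genes were measured. With 10 or more counts required in each library, an alternative chosen after seeing the data like that of protein-coding genes only, 1457 were higher and 2730 lower, and protein-coding genes gave 1568 and 3074. All genes past the fold also had counting intervals past 0. Exact intervals lay on the same side of 0 as the normal ones for 12820 of 12853 genes. Distances of list medians from the median of all genes moved by less than the spread of the 18 pairs under the alternatives run. Scaling cannot change such a distance, and the spread was wide for some lists, so this comparison could hardly come out otherwise. The list of immune and endothelial markers gave no value at a minimum of 500 counts. With 1 library per arm, depth limits genes under 500 counts most, and no alternative replaces a replicate.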
